A study of Bos taurus with 14 samples.

Results

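The autophagy and mitophagy machinery was followed as messenger RNA in longissimus dorsi, a postural muscle running along the spine, from 14 female cattle. Members were all rows of the deposited gene table with reads whose symbol starts with ATG and a digit, GABARAP or MAP1LC3, or is one of the WIPI, WDR45 and ULK1 to ULK4 genes. BECN1, PIK3C3, PIK3R4, UVRAG, RB1CC1, SQSTM1, NBR1, OPTN, TAX1BP1, BNIP3, BNIP3L, FUNDC1 and PINK1 were added by name. This gave 45 genes of 18078 in the table, each symbol on 1 row. The rule went by name and by having any read, and used no difference between the groups. The members were nevertheless chosen with earlier results of these data known. The restricted group was 7 animals whose dams were fed below requirement from day 158 of gestation until calving. The control group was 7 animals whose dams were fed 100% of requirement over the same days. The sources differ on the restricted level, which is 70% in the description of the design and 50% in the sample protocol. The calves of both groups had the same husbandry after birth, had feed without limit from postnatal day 301 and were sampled at slaughter on day 485. Each library is 1 animal, and whether animals shared a sire or dam is not stated.

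Autophagy encloses cytoplasm in a double membrane and delivers it to the lysosome. The ULK complex starts the process, a class III phosphatidylinositol 3-kinase marks the membrane with PI3P, WIPI proteins read that lipid, and ATG9 and ATG2 supply membrane. Conjugation enzymes then attach LC3 and GABARAP proteins to the membrane, where cargo receptors such as SQSTM1 dock. In mitophagy the cargo is mitochondria, marked by PINK1 or by receptors such as BNIP3 and FUNDC1. In rodent skeletal muscle, fasting and disuse engage this pathway through FOXO and TFEB transcription factors. Transcript levels do not measure autophagic flux, which depends on protein processing and lysosomal turnover.

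Libraries held 13631018 to 17325779 counted reads. Of the 8 muscle markers listed, 7 were found, and their summed level was 149921 to 180352 CPM (reads per 1e6 counted reads, scaled between libraries) in restricted animals and 130854 to 174143 CPM in controls. All markers looked up for other cell types had reads. The 5 adipocyte markers summed to 32.2 to 168 CPM in restricted animals and 10.7 to 151 CPM in controls, and the 4 macrophage markers to 5.32 to 13.9 CPM and 3.37 to 14.4 CPM in the same order. The 5 interferon response genes summed to 290 CPM in restricted 7, 114 CPM in restricted 4 and 127 CPM in control 7, against at most 27.9 CPM in the other 11 animals. In bulk muscle, fewer cells of a type and less RNA per cell cannot be told apart.

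No transcript of this machinery passed the test for a difference between restricted and control animals. By edgeR's quasi-likelihood test, 43 of the 45 members passed the filter on low counts and 0 passed an adjusted p of 0.05 in either direction, where the share of all 12187 genes tested was 0% higher and 0% lower. Every tested member had an adjusted p of 1.0. At an unadjusted p under 0.05 stood 0 members with higher values in restricted animals, where 2.17% of all genes did, and 1 member with lower values, ULK3, where 2.08% of all genes did. DESeq2 also called 0 members, with 0.00821% of all genes called. The median log2 fold change, restricted over control, was -0.0055 over the members and -0.00079 over all genes, with 20 members above 0 and 23 below. The groups overlapped for each of the 45 members. The share of all genes whose groups overlapped was not counted, so whether this is particular to the members is not known.

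The intervals were narrow. For 42 of 43 members the 95% interval of the fold change excluded a 1.5-fold difference in both directions, as it did for 77.8% of all genes. ULK4, with 6 to 15 reads per animal, was the exception. A difference as small as 1.2-fold was excluded in both directions for 20 of 43 members, and for 27.9% of all genes. The median member lay at 4.76 log2 CPM, above 70.1% of the genes tested.

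**Figure D1:**
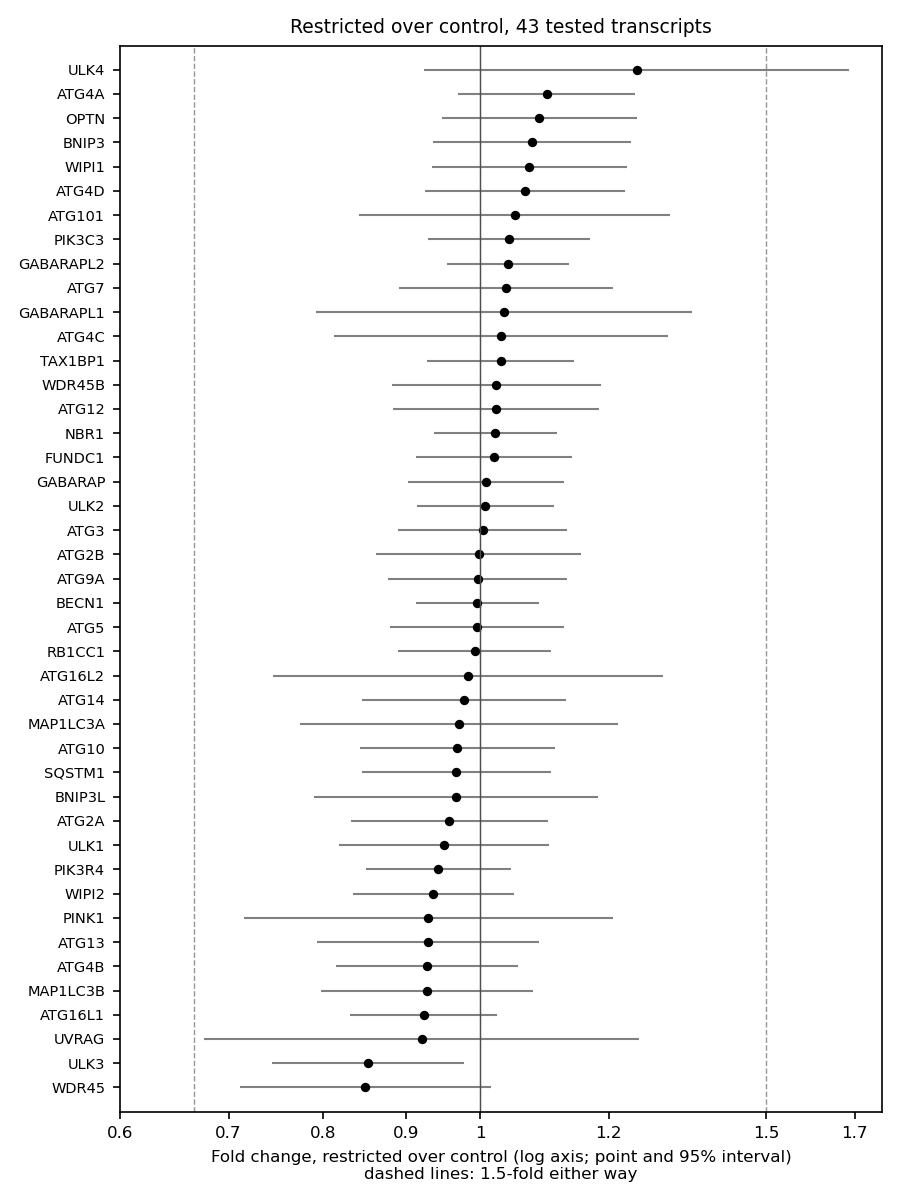
Fold change of each tested transcript, restricted over control, on a log axis, with its 95% interval from edgeR's quasi-likelihood fit (7 animals a group). The points lie between 0.85 for WDR45 and 1.25 for ULK4, and only the interval of ULK4 crosses a dashed line at 1.5-fold.

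Levels between genes were compared as CPM per kb of annotated exon. They spanned from 0.015 for MAP1LC3C to 244 ± 21.9 for GABARAP (SD, n = 14 animals). After GABARAP came OPTN at 234 ± 29.3, PINK1 at 224 ± 54.7, BNIP3 at 175 ± 23.1, SQSTM1 at 172 ± 19.7 and MAP1LC3B at 105 ± 14.8. From GABARAP to SQSTM1 each level differed from the next by less than the larger of their SDs, while the step from SQSTM1 to MAP1LC3B exceeded both SDs. The 6 highest were membrane-bound tags, cargo receptors and mitophagy factors. Other genes of the same roles lay far lower, with GABARAPL1 at 14.5 ± 3.82 and BNIP3L at 6.70 ± 1.23. ATG9A at 31.6 ± 3.605, WIPI1 at 30.0 ± 3.70, RB1CC1 at 27.4 ± 2.33 and BECN1 at 26.3 ± 1.58 were the most abundant per length of their own roles. The annotated BNIP3 model is short, at 570 bases, and a short length raises a level per kb. All members together took 0.339% to 0.404% of the scaled counts of an animal.

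**Figure D2:**
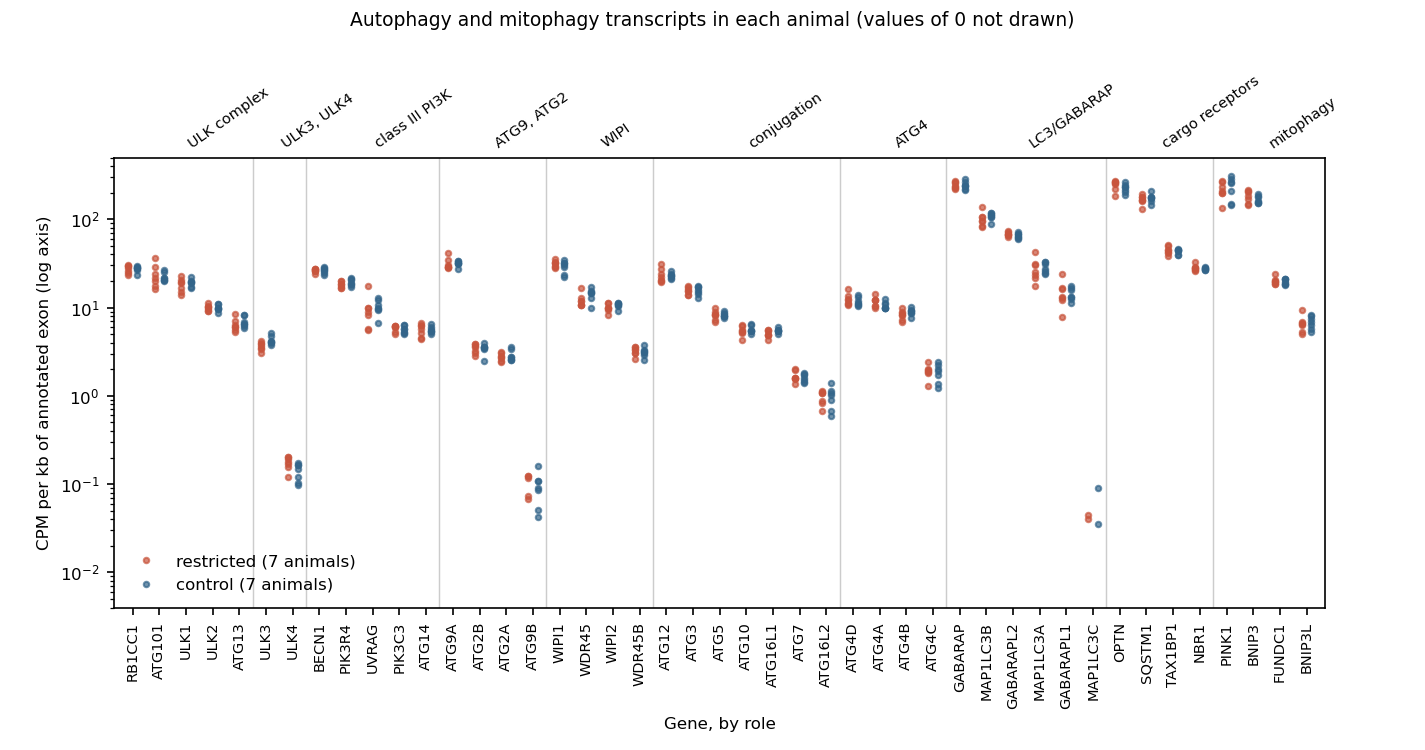
Level of each member in each animal, as CPM per kb of annotated exon on a log axis, grouped by role, with restricted animals left of controls for each gene (7 points each, values of 0 not drawn). GABARAP, OPTN, PINK1, BNIP3, SQSTM1 and MAP1LC3B lie highest, and ULK4, ATG9B and MAP1LC3C lowest.

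Genes of the ULK complex, which starts autophagy, had fold changes from 0.929 (0.794 to 1.087) for ATG13 to 1.050 (0.843 to 1.308) for ATG101. RB1CC1 (ENSBTAG00000000878), the scaffold of the ULK complex, had a lowest, median and highest value of 141, 171 and 183 CPM in restricted animals and 141, 168 and 181 CPM in controls. Its fold change was 0.992 with a 95% interval of 0.890 to 1.106. ULK1, the kinase of the complex, was at 101 ± 17.4 CPM in restricted animals and 106 ± 10.04 CPM in controls (SD, n = 7 each), a fold change of 0.950 (0.818 to 1.103). ULK2, its paralog, had the fourth smallest spread of all members and a fold change of 1.007 (0.914 to 1.110). ATG101, which stabilises ATG13, was at 24.1, 31.7 and 54.3 CPM in restricted animals and 29.5, 31.7 and 39.6 CPM in controls. The medians coincide, and the highest restricted value, in restricted 6, lay above all controls; ATG101 was named after its values were seen.

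ULK3 and ULK4 belong to the same kinase family but are not subunits of the initiation complex. ULK3 (ENSBTAG00000005838), a kinase with known roles in Hedgehog signalling and cytokinesis, was at 8.36, 10.1 and 11.5 CPM in restricted animals and 10.5, 11.3 and 14.1 CPM in controls. Of the 7 restricted animals, 6 lay below the control median, and the ranges overlapped between 10.5 and 11.5 CPM. The fold change was 0.853 (0.745 to 0.977), with an unadjusted p of 0.0242 and an adjusted p of 1.0 by edgeR. Leaving out control 3, control 4, restricted 3 or restricted 6 took this p to 0.0607, 0.0543, 0.0570 and 0.0509. ULK4, a pseudokinase, was at 0.565, 0.838 and 0.952 CPM in restricted animals and 0.452, 0.691 and 0.816 CPM in controls, a fold change of 1.248 (0.924 to 1.687).

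In the class III kinase complex the values of both groups lay close together. BECN1, its regulatory subunit, was at 57.3 ± 2.81 CPM in restricted animals and 57.5 ± 4.22 CPM in controls (SD, n = 7 each), a fold change of 0.996 (0.913 to 1.087). PIK3R4, the most abundant subunit by CPM, was at 91.2 ± 7.23 and 96.8 ± 8.57 CPM, a fold change of 0.942 (0.850 to 1.044). Fold changes were 1.042 for the catalytic subunit PIK3C3 and 0.977 for ATG14, which directs the complex to early autophagosomes.

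UVRAG (ENSBTAG00000016355), the alternative subunit that takes the place of ATG14 and acts in later endosomal steps, varied most between animals of the 43 tested members. It was at 34.2, 53.9 and 106 CPM in restricted animals and 40.7, 60.6 and 78.3 CPM in controls. The highest value was in restricted 7 and the lowest in restricted 4 and restricted 5, so the restricted values enclosed all controls. Its fold change was 0.920, with a wide interval of 0.676 to 1.253. On the log2 scale the log2 fold change of UVRAG was -0.12 with all animals, -0.34 without restricted 7 (unadjusted p of 0.0498 by edgeR), -0.027 without restricted 4, -0.028 without restricted 5, -0.056 without control 3, -0.069 without control 7 and -0.201 without control 6. Among the 9 titles ending in A it was -0.49 (unadjusted p of 0.0362 by edgeR). Restricted 7 also had the highest sums of adipocyte, fibroblast and interferon markers, and their part in the UVRAG value was not tested.

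Membrane supply and PI3P reading gave the second lowest p of the machinery. ATG9A, the transmembrane scramblase that seeds the membrane, was at 121 ± 18.7 CPM in restricted animals and 121 ± 7.94 CPM in controls, a fold change of 0.996 (0.877 to 1.131). Fold changes were 0.957 for ATG2A and 0.998 for ATG2B, the lipid transfer proteins. WDR45 (ENSBTAG00000002563), a WIPI-family propeller whose human gene is mutated in a neurodegeneration with brain iron accumulation, was at 16.0, 17.6 and 24.9 CPM in restricted animals and 14.96, 22.2 and 26.0 CPM in controls. Here 6 of 7 restricted animals lay below the control median, while restricted 4 lay with the high controls and control 7 was lowest of all. WDR45 had a fold change of 0.850 (0.712 to 1.015), with an unadjusted p of 0.0699 and an adjusted p of 1.0 by edgeR. Without restricted 4 the log2 value was -0.33 (unadjusted p of 0.00812), and without control 7 it was -0.31 (unadjusted p of 0.0106). Control 7, restricted 4 and restricted 7 are the animals with high interferon markers. Restricted 4 and control 7 are also those that went against the difference, so leaving them out enlarges it. Without all of these together the log2 value was -0.41, with an unadjusted p of 0.000521 and an adjusted p of 0.937. The value was smaller without control 5, at -0.184 (unadjusted p of 0.149), and among the 9 titles ending in A, at -0.155 (unadjusted p of 0.367), so the size depended on which animals were included. For the other propellers the fold change was 1.072 (0.933 to 1.231) for WIPI1, 0.936 (0.835 to 1.049) for WIPI2 and 1.023 (0.882 to 1.187) for WDR45B.

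The 7 conjugation enzymes had fold changes between 0.923 and 1.037. ATG16L1, which places the conjugation complex on the membrane, was lowest of them, at 21.1 ± 1.99 CPM in restricted animals and 22.8 ± 1.18 CPM in controls, a fold change of 0.923 (0.832 to 1.024). ATG12, a ubiquitin-like protein joined to ATG5, was the most abundant by CPM, with 32.7, 37.3 and 52.6 CPM in restricted animals and 35.4, 38.4 and 43.2 CPM in controls. ATG7, the activating enzyme, had a fold change of 1.037 (0.891 to 1.207). ATG16L2, a paralog of ATG16L1, was at 1.68 to 2.76 CPM in restricted animals and 1.47 to 3.45 CPM in controls, on 21 to 58 reads per animal.

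Among the 4 ATG4 proteases, which trim LC3 and GABARAP proteins before conjugation and release them afterwards, ATG4A stood at 26.2, 31.6 and 37.2 CPM in restricted animals and 25.7, 26.1 and 32.6 CPM in controls. All 7 restricted animals lay above the control median, although the ranges overlapped widely. The fold change of ATG4A was 1.099 (0.970 to 1.246). ATG4B was at 18.6 ± 2.33 CPM in restricted animals and 20.1 ± 1.79 CPM in controls, a fold change of 0.928 (0.816 to 1.056). Fold changes were 1.030 for ATG4C and 1.065 for ATG4D.

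The LC3 and GABARAP proteins are the tags that label the membrane and hold the receptors. GABARAP (ENSBTAG00000014883) was the main transcript of the family per kb of exon. It was at 182, 194 and 224 CPM in restricted animals and 175, 195 and 234 CPM in controls, a fold change of 1.008 (0.902 to 1.126). By CPM alone MAP1LC3B was close, with a mean of 186 against 201 for GABARAP in restricted animals and 201 against 199 in controls. The lead of GABARAP per kb thus depends on the annotated lengths, 820 bases for GABARAP and 1849 bases for MAP1LC3B. As a share of the summed CPM per kb of the family it held 53.7% ± 2.20 in restricted animals and 52.8% ± 1.89 in controls (SD, n = 7 each). MAP1LC3B, the form most used as an autophagosome marker, held 21.99% ± 2.56 and 23.6% ± 1.43, and GABARAPL2 14.99% ± 1.183 and 14.3% ± 0.727. The GABARAP branch thus outweighed the LC3 branch in the summed CPM per kb of every animal, since GABARAP alone held at least 50.2%. MAP1LC3B was at 151, 177 and 253 CPM in restricted animals and 165, 206 and 217 CPM in controls, with 6 of 7 restricted animals below the control median and restricted 4 above all others. Its fold change was 0.927 (0.798 to 1.078), and the log2 fold change of MAP1LC3B was -0.11 with all animals and -0.197 without restricted 4 (unadjusted p of 0.0310 by edgeR). It was -0.065 without restricted 7 (unadjusted p of 0.533), -0.069 without restricted 6 (unadjusted p of 0.512) and -0.054 among the 9 titles ending in A (unadjusted p of 0.704).

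GABARAPL1 and MAP1LC3A, minor forms here, varied most within the family. GABARAPL1 (ENSBTAG00000011765) was at 15.1, 25.5 and 46.7 CPM in restricted animals and 21.8, 25.1 and 33.4 CPM in controls. MAP1LC3A was at 22.2, 32.1 and 53.4 CPM in restricted animals and 30.4, 34.6 and 42.0 CPM in controls. Both peaked in restricted 6, and the lowest values were in restricted 2 for GABARAPL1 and in restricted 5 for MAP1LC3A, so that the controls lay inside the restricted range. Fold changes were 1.034 (0.793 to 1.350) for GABARAPL1 and 0.970 (0.774 to 1.215) for MAP1LC3A. Without restricted 6, the log2 fold change of GABARAPL1 was -0.11 and the log2 fold change of MAP1LC3A was -0.18, against 0.049 and -0.044 with all animals. With any other single animal left out, that of GABARAPL1 lay between 0.00047 (without control 3) and 0.157 (without restricted 2) and that of MAP1LC3A between -0.079 (without restricted 4) and 0.040 (without restricted 5). GABARAPL2 had a fold change of 1.040 (0.954 to 1.134). MAP1LC3C had at most 1 read in restricted animals and 2 reads in controls and was at 0 in 5 of 7 animals of each group. ATG9B, the paralog of ATG9A, had 0 to 6 reads in restricted animals and 2 to 8 reads in controls. A count of 0 allows up to 3 reads, or 0.166 to 0.226 CPM depending on the library, and neither gene was tested.

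Cargo receptors tie ubiquitylated cargo to LC3 and GABARAP proteins. OPTN (ENSBTAG00000016401), which also acts in PINK1-dependent mitophagy, was at 440, 609 and 649 CPM in restricted animals and 447, 548 and 627 CPM in controls, a fold change of 1.087 (0.947 to 1.249). Its lowest value was in restricted 4, without which the log2 fold change of OPTN was 0.178 (unadjusted p of 0.0467 by edgeR), against 0.121 with all animals, 0.082 without control 4 (unadjusted p of 0.393) and 0.059 among the 9 titles ending in A (unadjusted p of 0.633). SQSTM1 (ENSBTAG00000015591), also called p62, was at 343, 437 and 511 CPM in restricted animals and 379, 460 and 552 CPM in controls, a fold change of 0.967 (0.846 to 1.105). TAX1BP1 was at 154 ± 15.4 CPM and 150 ± 9.503 CPM in the same order, a fold change of 1.029 (0.928 to 1.142). NBR1, a receptor for protein aggregates, had the smallest spread of all tested members. It ran from 146 to 187 CPM in restricted animals and from 152 to 163 CPM in controls, a fold change of 1.022 (0.937 to 1.114).

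Of the mitophagy genes, PINK1 (ENSBTAG00000006084), the kinase that accumulates on damaged mitochondria, was at 401, 616 and 790 CPM in restricted animals and 429, 757 and 915 CPM in controls. The 3 lowest values came from both groups, in restricted 4 at 401 CPM, control 4 at 429 CPM and control 5 at 440 CPM, while the other 11 animals lay at 586 CPM or more. PINK1 had a fold change of 0.929 (0.715 to 1.207). BNIP3 (ENSBTAG00000017804), a hypoxia-responsive receptor of the outer mitochondrial membrane, was at 81.7, 103 and 121 CPM in restricted animals and 87.0, 90.9 and 110 CPM in controls, a fold change of 1.076 (0.935 to 1.238). BNIP3L, its paralog and the receptor of mitochondrial clearance in maturing red cells, was far rarer per length, at 6.70 ± 1.23 CPM per kb against 175 ± 23.1 for BNIP3 (n = 14). By CPM alone the gap was smaller, at 8.83 ± 1.62 for BNIP3L and 99.8 ± 13.2 for BNIP3, on annotated lengths of 1318 and 570 bases. Fold changes were 0.966 (0.790 to 1.181) for BNIP3L and 1.019 (0.913 to 1.138) for FUNDC1.

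Most members varied little between animals. The SD of log2 CPM over the 14 animals had a median of 0.170 over the 43 tested members and 0.231 over all genes tested, and 10 of 43 members exceeded the median of all genes. The median member also lay above 70.1% of the tested genes in level. Genes of like level were not compared, so whether the small spread is particular to the members is not known. The highest animal exceeded the lowest by more than 2-fold for 8 members (18.6%) and for 37.9% of all genes. The spread was largest for UVRAG (0.443), PINK1 (0.380), GABARAPL1 (0.374), ATG16L2 (0.331) and MAP1LC3A (0.313), and smallest for NBR1 (0.082), BECN1 (0.088), GABARAPL2 (0.091), ULK2 (0.103) and FUNDC1 (0.111). The SD was larger in restricted animals than in controls for 27 of 43 members (62.8%) and for 57.0% of all genes. It was over 2 times larger for 7 members, which were ATG5, ATG9A, MAP1LC3A, GABARAPL1, ATG101, ATG12 and NBR1, and for 8.25% of all genes. This count was 4 without restricted 4, without restricted 6 or without control 4. Without restricted 4 the ratio of the SDs, restricted over control, was 1.46 for NBR1, against 2.86 with all animals, and 1.16 for ATG9A, against 2.09.

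**Figure D3:**
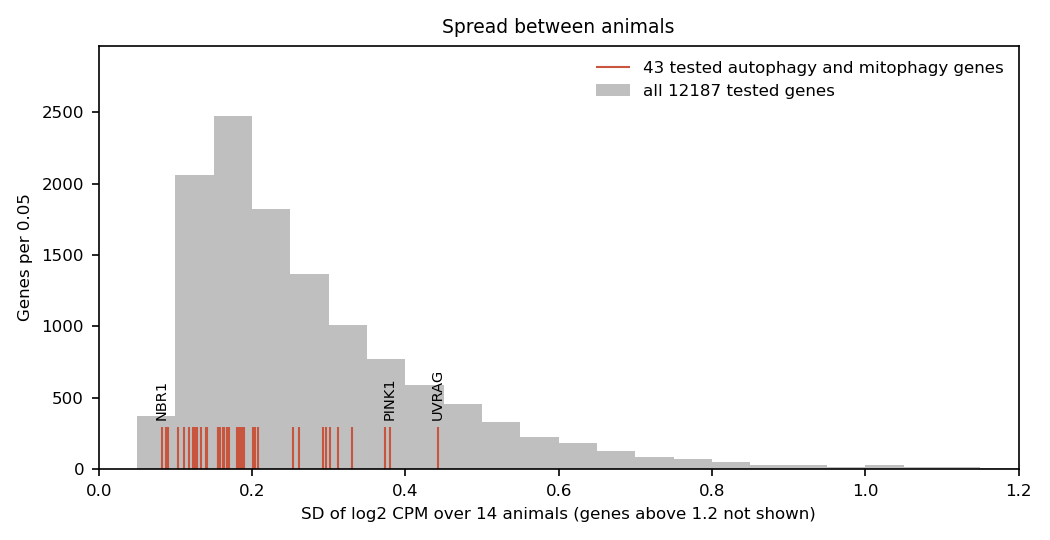
SD of log2 CPM over the 14 animals, with grey bars for the number of genes per 0.05 among all 12187 tested, and red ticks for the 43 tested members. The members run from NBR1 at 0.082 to PINK1 at 0.380 and UVRAG at 0.443, and 10 of 43 lie above the median of all genes (0.231). Genes of like level were not compared.

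The extremes of the tested members were unevenly spread over the animals. Extremes over all genes were not counted, so whether this is particular to the members is not known. Restricted 4 had the highest value of 10 tested members, among them MAP1LC3B, ATG12, ATG9A, ULK1, BNIP3 and NBR1, and the lowest of 6, among them PINK1, UVRAG and OPTN. Restricted 6 was highest for 5, ATG101, ATG5, MAP1LC3A, GABARAPL1 and ULK4, and lowest for 8, among them SQSTM1, ULK1, BNIP3 and WIPI2. Each of the other 12 animals was highest for at most 5 members and lowest for at most 5. The same 2 animals had the highest levels of PDK4, a mitochondrial kinase induced by fasting and glucocorticoids, at 9.10 log2 CPM in restricted 4 and 10.2 log2 CPM in restricted 6 against at most 7.51 elsewhere. Restricted 4 was also one of the 3 animals with high interferon markers, and the part of either in these values was not tested.

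**Figure D4:**
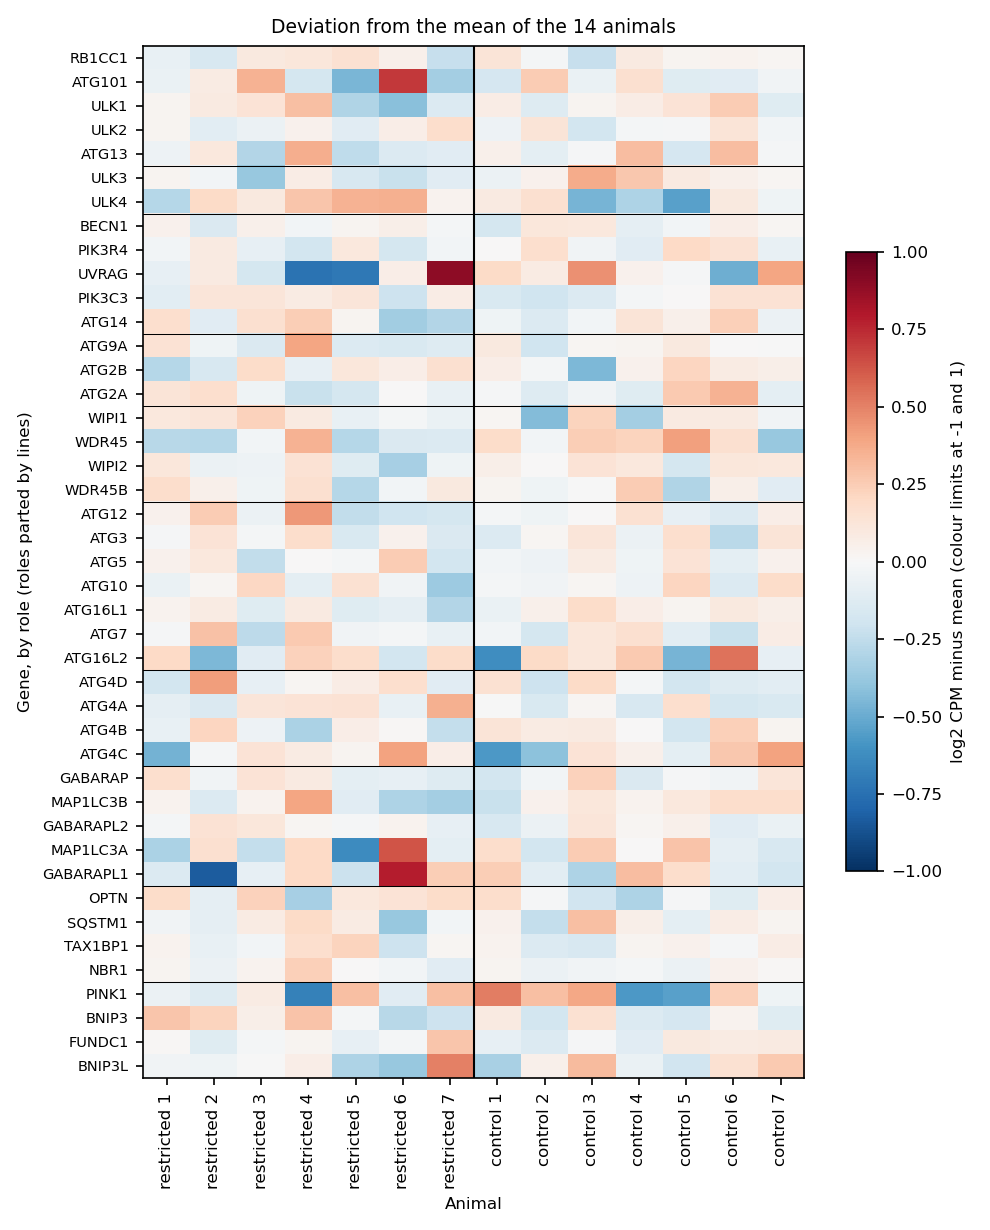
Deviation of each tested member from its mean over the 14 animals, in log2 CPM, with restricted animals left of the line and controls right of it, and genes grouped by role. Restricted 4 and restricted 6 hold the most extremes (10 highest and 6 lowest, and 5 highest and 8 lowest), and UVRAG and GABARAPL1 show the strongest colours.

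Relations between single genes were examined for 14 pairs over the 14 animals, and 0 passed after Benjamini-Hochberg adjustment over the pairs. The highest r was that of SQSTM1 with FBXO32, a ubiquitin ligase of muscle atrophy, at r = 0.6002 (permutation p = 0.0301, adjusted 0.259) and rho = 0.451 (permutation p = 0.108, adjusted 0.551). It rested on restricted 3 and restricted 6, without which r was 0.169 (permutation p = 0.605). Within the 7 restricted animals r was 0.965 (exact permutation p = 0.00238, adjusted 0.0333) and rho 0.857 (unadjusted exact permutation p = 0.0238). This adjustment covered the 14 pairs in the restricted group alone. The pairs in controls were adjusted apart, and no adjustment over both groups was made. The adjusted 0.0333 therefore does not show that SQSTM1 with FBXO32 passes over all the within-group tests. Without restricted 3 and restricted 6 the r within the restricted group was 0.932 (unadjusted exact permutation p = 0.0167, n = 5). Within the 7 controls r was -0.293 (exact permutation p = 0.523), and the difference between the groups in r was not tested. GABARAPL1 with PDK4 gave r = 0.556 (permutation p = 0.0472, adjusted 0.259) and rho = 0.371 (permutation p = 0.189, adjusted 0.551). Without restricted 4 and restricted 6 its r was 0.064 (permutation p = 0.839), so it rested on these animals.

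Over the 14 animals of both diets, correlations between paralogs and between other members did not pass the adjusted test. For BNIP3 with BNIP3L r was 0.048 (permutation p = 0.871), rho was 0.125 (permutation p = 0.670), and r was 0.097 without restricted 6 and restricted 7. For MAP1LC3B with SQSTM1 r was 0.519 (permutation p = 0.0555, adjusted 0.259), rho was 0.371 (permutation p = 0.192), and r was 0.450 without control 2 and restricted 6. Within the 7 restricted animals the r of this pair was 0.718 (exact permutation p = 0.0790), and within the 7 controls 0.109 (exact permutation p = 0.768). The other 10 pairs had an r between -0.346 and 0.374, each with an adjusted permutation p of at least 0.551. Among them was PINK1 with the slow myosin MYH7, at r = 0.101 (permutation p = 0.729), rho = 0.121 (permutation p = 0.683) and r = 0.077 without control 1 and control 2.

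**Figure D5:**
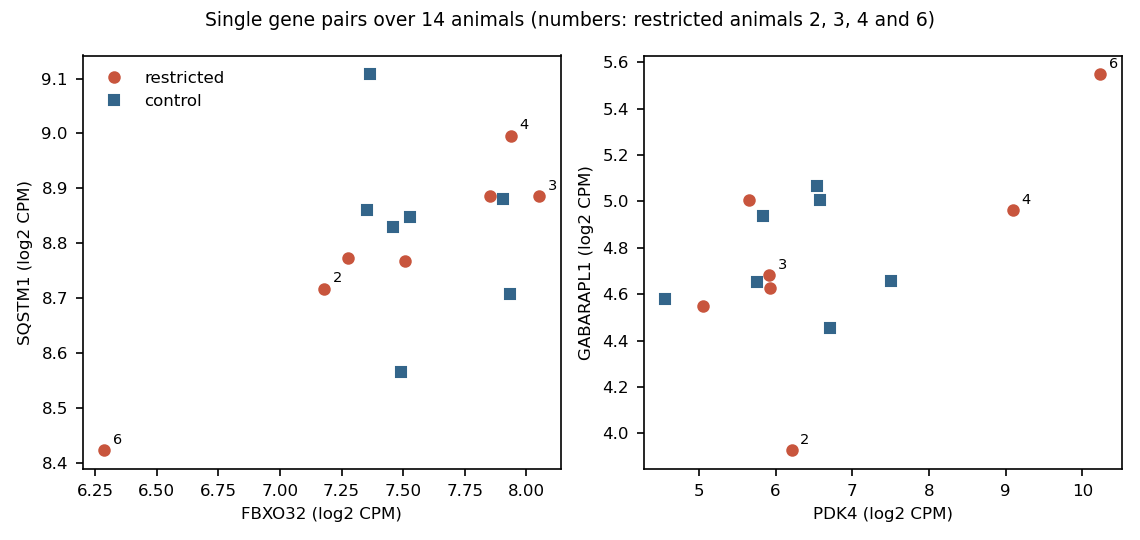
SQSTM1 against FBXO32 (left) and GABARAPL1 against PDK4 (right) in log2 CPM, with circles for the 7 restricted animals and squares for the 7 controls. The restricted circles line up on the left panel (r = 0.965, against -0.293 in controls, n = 7 each), and this difference in r was not tested. On the right restricted 4 and restricted 6 stand far out in PDK4. Over all 14 animals neither pair passed after adjustment (adjusted permutation p of 0.259 for each).

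Other genes of the pathway were taken from a list of upstream kinases, transcription factors, membrane and fusion proteins, lysosomal genes and further mitophagy and atrophy factors. Of 103 symbols listed, some of them older names of the same gene, 97 were found and 95 tested. By edgeR 0 were past an adjusted p of 0.05 in either direction, and at an unadjusted p under 0.05 stood 1 higher and 1 lower, where 2.17% and 2.08% of all genes did. The higher count was 0 without control 2, restricted 2, restricted 5 or restricted 7 and 2 without control 5, restricted 1 or restricted 6. The lower count was 0 without control 2, control 4, control 5, restricted 1 or restricted 7 and 2 without restricted 4. With 1 animal left out, 12231 to 12287 genes were tested. Of these, 231 to 359 were higher and 228 to 333 lower at this p, against 264 and 254 of 12187 with all animals. The median log2 fold change of the list was 0.0099, with 52 genes above 0, and 88 of 95 intervals excluded a 1.5-fold difference.

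The 3 smallest p-values on the higher side belonged to DNM1L, the GTPase of mitochondrial fission (fold change 1.138, 1.014 to 1.278, unadjusted p of 0.0308 by edgeR), TRIM63, a ubiquitin ligase of muscle atrophy (1.152, 0.972 to 1.367), and TMEM41B, a scramblase of early autophagosomes (1.142, 0.971 to 1.342). On the lower side they belonged to DDIT4, an inhibitor of mTORC1 (0.685, 0.470 to 0.997, unadjusted p of 0.0485 by edgeR), TECPR1, a tether of autophagosomes to lysosomes (0.842, 0.698 to 1.015), and RETREG1, a receptor for endoplasmic reticulum (0.802, 0.614 to 1.047). All 6 had an adjusted p of 1.0. DNM1L was at 37.3, 49.1 and 54.3 CPM in restricted animals and 38.0, 43.2 and 45.4 CPM in controls. TFEB, a transcription factor of autophagy and lysosomal genes, was at 44.2 ± 4.14 CPM in restricted animals and 44.6 ± 4.23 CPM in controls (SD, n = 7 each).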

How the data were processed

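Per the labels' protocols, total RNA was extracted with Trizol, DNase treated, column purified and made into Illumina libraries. The authors deposited raw read counts per gene, with exon lengths, and per the submitters' processing notes FastQC, HISAT2, featureCounts, edgeR and the build ARS-UCD1.2 were used. No source used here gives versions, strand setting or the treatment of multiply aligned reads, so counts of genes with near-identical copies (such as MAP1LC3B, GABARAP or BNIP3) or overlapping genes are uncertain. No genome of that build was used, and no coordinates or sequences are given.

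The deposited counts were fitted in edgeR 4.0.16 (R 4.3.3) after filterByExpr (minimum count 10, total 15), trimmed mean of M-values scaling, and the quasi-likelihood F test on diet group over all genes, with Benjamini-Hochberg adjustment (0.05). Intervals are 95% confidence intervals of the fold change between the groups, from the fit. They rest on the spread between these animals but do not give the range of single animals. Log2 CPM used a prior count of 2. DESeq2 1.42.0 and limma 3.58.1 were alternatives. Correlations used 100000 permutations, or all orders for 7 or fewer animals. Totals ran from 13631018 to 17325779 counts, and the common biological coefficient of variation was 0.190. No 2 libraries agreed within sampling noise (chi-square per degree of freedom at least 11.996). The fit and the permutation test were tested on simulated data.

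Groups came from the treatment label; replicate numbers follow sample order and pair nothing. The members and lists were chosen with earlier results of these data known. Genes described were, per role, the most abundant, the 5 smallest p-values in each direction, the 5 largest and smallest spreads, all LC3 and GABARAP genes, all receptors, the members below the filter, and the 3 partners with the smallest p in each direction and the genes of the correlated pairs. ATG101, ATG13 and others named as examples in groups or by animal were added afterwards.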

Additional observations from a re-analysis of the deposited data

Results flagged for a closer look

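For 9 of the 86 sets of 7 values (43 tested members in each diet group), 1 animal stood apart from the other 6 by Dixon's criterion on log2 CPM. About 1 in 20 independent sets is marked by chance, but these sets share the same 14 animals. The share marked over all genes was not counted, so whether this is particular to the members is not known. In restricted animals, NBR1 was at 187 CPM in restricted 4 against 146 to 162 CPM in the others, and WDR45 at 24.9 CPM in restricted 4 against 16.0 to 19.2 CPM. FUNDC1 was at 21.4 CPM in restricted 7 against 16.3 to 18.03 CPM, and BECN1 at 51.7 CPM in restricted 2 against 56.2 to 59.8 CPM. In controls, ATG2B was at 18.2 CPM in control 3 against 24.5 to 28.9 CPM, and RB1CC1 at 141 CPM in control 3 against 163 to 181 CPM. ATG9A was at 105 CPM in control 2 against 120 to 129 CPM, MAP1LC3B at 165 CPM in control 1 against 196 to 217 CPM, and WIPI2 at 23.3 CPM in control 5 against 26.5 to 29.1 CPM.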

How the results depend on the processing

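No member and no gene of the partner list passed an adjusted p of 0.05 under any of the 26 alternatives run, 14 of which left out 1 animal. The number of members at an unadjusted p under 0.05 with lower values in restricted animals was 1 with all animals, 3 with library size scaling, 2 with limma's voom, 2 without control 7, restricted 4 and restricted 7 together, 2 without restricted 4 and restricted 6 together, and 0 to 3 when 1 animal was left out. It was 0 without control 3, control 4, restricted 3 or restricted 6, 2 without control 7 or restricted 7, and 3 without restricted 4. Over all 12187 genes tested, 254 were lower at this p with all animals, 500 with library size scaling and 301 with voom. Without control 7, restricted 4 and restricted 7 together the count was 318 of 12270 genes, and without restricted 4 and restricted 6 together 342 of 12363. Leaving out 1 animal gave 228 (without control 4) to 333 (without restricted 4) over all genes. The number of members with higher values was 0, where 264 of 12187 genes had them. It was 1 among titles starting with Y, where 261 of 12274 genes did. Leaving out 1 animal gave 0 to 1 members, and 231 (without restricted 7) to 359 (without restricted 4) over all genes. Where a stricter or smaller set of genes or animals was used, the cause of a change was not tested. The number of members whose SD was over 2 times larger in restricted animals was 7 with all animals and 4 to 10 when 1 animal was left out, and the number with a larger SD was 27 and then 26 to 30; these counts were added after the data were seen. Of the 43 log2 fold changes, 19 kept their sign in all alternatives and 24 changed it at least once, none of them called. No gene pair passed after adjustment in any alternative over both diets. No paired analysis was possible because the labels give no replicate numbers shared between the groups. Genes under about 15 reads per animal, such as ULK4, ATG9B and MAP1LC3C, are limited by depth.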

Other observations

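The sample titles end in A or B, a letter the labels do not explain. In the fit with diet and this letter, 0 members differed between the 5 animals with B and the 9 with A at an adjusted p of 0.05 by edgeR, where 0% of all genes did in either direction. The smallest unadjusted p among members was that of WIPI1 (0.0348), at 50.96 ± 8.78 CPM with B and 57.6 ± 4.36 CPM with A (SD).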
